A study of Mus musculus with 4 samples.

Results

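Apolipoprotein D, the lipocalins Ptgds and Lcn2, and genes of brain lipid transport were followed in RNA sequencing of mouse prelimbic cortex, a medial prefrontal area. There were 8 genes, chosen by symbol with earlier results of these data known: Apod, Ptgds, Lcn2, Apoe, Apoc1, Clu, Abca1 and Apobec1. All 8 have a row among the 15396 genes of the authors' table for the virus experiment. Only 7 have one among the 12318 genes of the table for the stress experiment, where Apoe has no row. All samples came from C57BL/6 mice aged 8 weeks. The libraries are 1 each from stress-susceptible mice (Susceptible), control mice of the same experiment (Control), mice given adeno-associated virus (AAV) expressing the chromatin corepressor CDYL (AAV-CDYL), and mice given the same kind of virus expressing green fluorescent protein (AAV-GFP). The labels tag both the Susceptible and the Control sample with chronic social defeat stress, repeated attacks by an aggressor mouse, which leaves the treatment of the Control mice uncertain. Neither the promoter of the virus, nor the time after injection, nor the number of mice behind a sample is stated in the labels.

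Lipocalins are small secreted proteins folded into a barrel that carries a fatty or otherwise poorly soluble ligand. Apolipoproteins coat lipid particles; in the brain, which makes its own, Apoe is the main sterol carrier, is made chiefly by astrocytes and by microglia, and is loaded with lipid by the membrane transporter Abca1. Despite its name, apolipoprotein D is a lipocalin, made in brain by oligodendrocytes and by cells along vessels and in the meninges. Clu (apolipoprotein J) is a secreted chaperone of astrocytes, and Apobec1 is the deaminase named for C-to-U editing of the transcript of another apolipoprotein.

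All levels are FPKM, a fragment count divided by transcript length and library size, so levels of different genes can be compared. Effective depth, estimated from the spacing of low values, was 23100000 fragments in Susceptible, 14200000 in Control, 23900000 in AAV-CDYL and 22600000 in AAV-GFP. Cdyl itself stood at 1052 FPKM in AAV-CDYL and 2.68 in AAV-GFP, in the direction of the labels. With 1 library per group there is no replicate check and no test between groups; an interval beside a ratio is a 95% Clopper-Pearson interval on approximate fragment numbers and covers counting error only. In both tables no gene above 0 in both libraries has a ratio under 1.25, so an absent gene carries no value and is not thereby shown to be alike. In tissue RNA, fewer cells of a type and less RNA per cell cannot be told apart.

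The sequences before the transcription starts of the 3 lipocalin genes are shown because these genes had the largest FPKM ratios of the set in the stress experiment, apart from Apoc1, which was listed at 0 in Control and has no ratio. Each run gives the 250 bases before the RefSeq start (build GRCm38.p6, all on the minus strand, 5′ to 3′): chr16:31314809-31315058 for Apod, chr2:25469750-25469999 for Ptgds and chr2:32387740-32387989 for Lcn2. In them capitals mark matches to any of 10 short motifs searched on both strands.
Apod: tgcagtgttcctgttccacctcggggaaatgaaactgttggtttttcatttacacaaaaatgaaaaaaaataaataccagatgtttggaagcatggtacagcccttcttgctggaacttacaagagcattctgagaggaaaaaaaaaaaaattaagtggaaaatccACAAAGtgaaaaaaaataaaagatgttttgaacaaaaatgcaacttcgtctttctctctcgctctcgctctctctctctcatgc
Ptgds: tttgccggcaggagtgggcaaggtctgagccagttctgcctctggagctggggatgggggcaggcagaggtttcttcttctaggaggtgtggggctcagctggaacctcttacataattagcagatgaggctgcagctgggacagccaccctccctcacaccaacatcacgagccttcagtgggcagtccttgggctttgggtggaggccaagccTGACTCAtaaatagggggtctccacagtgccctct
Lcn2: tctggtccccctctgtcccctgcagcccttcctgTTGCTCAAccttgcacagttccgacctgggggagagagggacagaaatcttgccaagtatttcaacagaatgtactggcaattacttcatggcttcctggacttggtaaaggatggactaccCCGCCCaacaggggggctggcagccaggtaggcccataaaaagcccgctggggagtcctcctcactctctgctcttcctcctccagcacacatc
The search covered TGANTCA for AP-1, TTCNNNGAA for STAT factors, TTGCNNAA for C/EBP and ACAANG for SOX factors. It also covered AGGTCA for nuclear receptors, AGAACA for the glucocorticoid receptor, CACGTG as E-box, GGGCGG as GC box, TATAAA for the core promoter, and the NF-kB motif. The Apod window holds 1 SOX match at positions -84 to -79 from the start; 36.3% of 32851 promoter windows hold this motif. The Ptgds window holds 1 AP-1 match at -35 to -29 (6.75% of windows). The Lcn2 window holds 1 C/EBP match at -216 to -209 (9.56% of windows), and 1 GC box (32.7%). These 3 windows share no motif of the list, and a match is a description of letters, not of a bound site. The Apod window is poor in G and C, at 36.4%, against 58.4% for Ptgds, 56.4% for Lcn2 and a median of 52.4% over all windows.

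Apod had one of the larger differences in each experiment. It stood at 237 FPKM in Susceptible and 17.4 FPKM in Control, a ratio of 13.6 (12.5 to 14.9). It stood at 193 FPKM in AAV-CDYL and 21.8 FPKM in AAV-GFP, a ratio of 8.87 (8.31 to 9.47). Susceptible and AAV-CDYL were thus the high libraries and lay close to each other, as did Control and AAV-GFP, although the tables were normalized separately. The ribosomal RNA gene Rn18s-rs5 split the libraries in the same way with the opposite sign, at 129 FPKM in Susceptible and 506 in Control, and at 137 in AAV-CDYL and 691 in AAV-GFP. In the authors' deposited table it has q = 0.0225 for stress, and q = 0.0556 for the virus pair; the part of ribosomal RNA content or RNA quality in the results was not tested. By the difference in log2(FPKM + 1), Apod was number 14 of the 5334 genes at 1 FPKM or more in either library of the stress table (difference 3.69), and number 200 of 8047 in the AAV table (3.09). Apod (ENSMUSG00000022548) lies on chromosome 16 from 31296192 to 31314808 (mm10, as all gene positions here), and its longest annotated transcript has 6 exons.

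**Figure D1:**
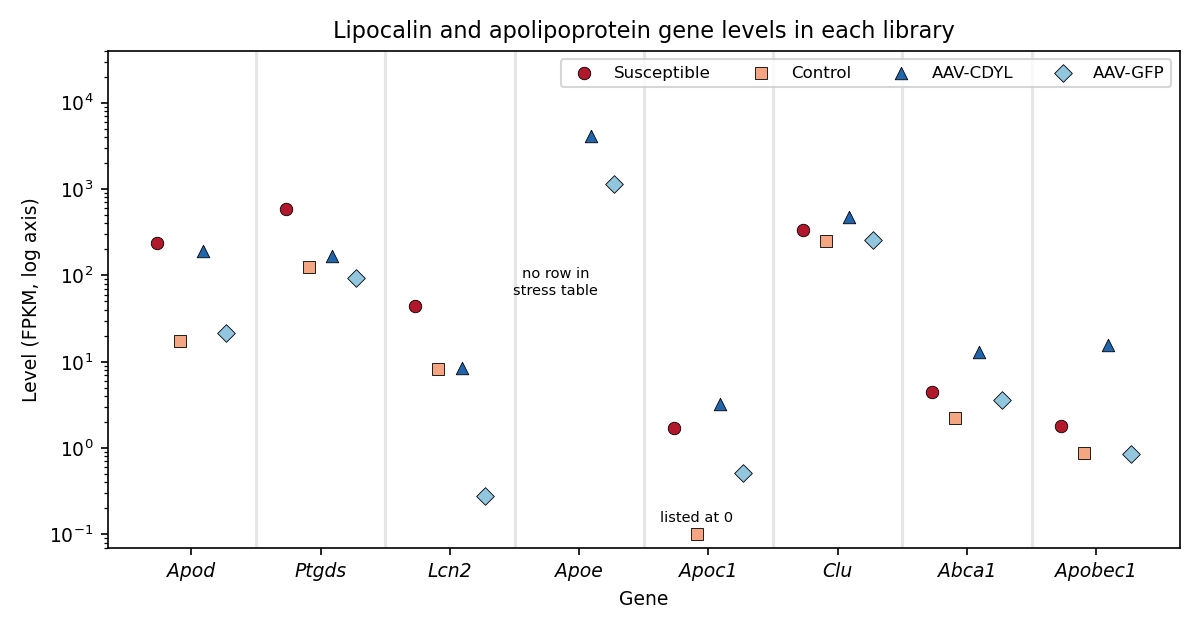
Level of each gene (FPKM, log axis) in the 4 libraries, 1 point per library. Apod stood at 237 and 193 in Susceptible and AAV-CDYL against 17.4 and 21.8 in Control and AAV-GFP; Lcn2 in AAV-CDYL (8.48) lay near its level in Control (8.27). Apoc1, listed at 0 in Control, is drawn at the foot of the axis.

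Ptgds, which makes prostaglandin D2 and also acts as a lipid carrier in cerebrospinal fluid, differed much more in the stress experiment than in the virus experiment. Its level was 592 FPKM in Susceptible and 125 FPKM in Control, a ratio of 4.75 (4.55 to 4.96). In the virus experiment it was 167 FPKM in AAV-CDYL and 92.3 FPKM in AAV-GFP, a ratio of 1.81 (1.73 to 1.899). In Susceptible it was the most abundant of the 7 listed genes per length, above Clu, whereas in Control it was below Clu. Whether the ratios of the 2 experiments differ beyond the spread between mice was not tested. Ptgds (ENSMUSG00000015090) lies on chromosome 2 from 25466709 to 25470046.

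Lcn2, which captures bacterial iron carriers and is both an acute-phase protein and a protein of neutrophil granules, was high where Apod was high, but from unequal starting levels. It stood at 44.4 FPKM in Susceptible and 8.27 FPKM in Control, a ratio of 5.37 (4.55 to 6.35). In the virus experiment it stood at 8.48 FPKM in AAV-CDYL and 0.277 FPKM in AAV-GFP, a ratio of 30.6. That ratio rests on about 9 fragments in AAV-GFP, and its interval runs from 15.2 to 64.8. The level of Lcn2 in AAV-CDYL was therefore about that of Control in the other, separately normalized table. Set side by side in the same way, AAV-GFP minus Control was -2.86 for Lcn2 on the log2(FPKM + 1) scale, and only 8 of 3100 genes, Lcn2 included, lay that low or lower. For the same 3100 genes, 95.1% of differences were smaller than 1 in size, and Clu (0.041) and Apod (0.31) were among them. Lcn2 (ENSMUSG00000026822) lies on chromosome 2 from 32384633 to 32388252.

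Apoe, Apoc1 and Clu, the apolipoproteins outside the lipocalin family, ranged from the most abundant gene of the set to one of the least. Apoe was the most abundant gene of the set, at 4072 FPKM in AAV-CDYL and 1145 FPKM in AAV-GFP, a ratio of 3.56 (3.52 to 3.60). Apoe (ENSMUSG00000002985) spans 19696109 to 19699188 on chromosome 7. No value for the stress experiment is at hand. Apoc1, a small apolipoprotein whose gene ends 3448 bases from Apoe on chromosome 7, stood at 3.22 FPKM in AAV-CDYL and 0.517 FPKM in AAV-GFP. Its ratio of 6.23 rests on about 41 and 6 fragments (2.73 to 18.6). In the stress experiment Apoc1 stood at 1.69 FPKM in Susceptible and was listed at 0 in Control, so no ratio is given. Apoc1 is thus lowly expressed in all 4 libraries, beside a neighbour that is among the most abundant genes of the AAV table.

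Clu had the smallest ratio of the set in the stress experiment. It stood at 332 FPKM in Susceptible and 251.2 FPKM in Control, a ratio of 1.32 (1.28 to 1.36) that lies just above the smallest ratio the table lists. With the viruses it stood at 470 FPKM in AAV-CDYL and 258 FPKM in AAV-GFP, a ratio of 1.82 (1.78 to 1.86), close to that of Ptgds. Control and AAV-GFP differed little for this gene, which lies on chromosome 14 from 65968483 to 65981548 (ENSMUSG00000022037).

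Abca1, the transporter that exports cholesterol and phospholipid to apolipoproteins, and Apobec1 both had larger ratios with AAV-CDYL than after stress. Abca1 stood at 4.48 FPKM in Susceptible and 2.21 FPKM in Control (ratio 2.03, 1.79 to 2.30), and at 13.1 FPKM in AAV-CDYL and 3.58 FPKM in AAV-GFP (ratio 3.66, 3.39 to 3.96). Apobec1 stood at 1.82 FPKM in Susceptible and 0.889 FPKM in Control, a ratio of 2.04 (1.32 to 3.17). With the median length of its annotated transcripts in place of the longest, the lower bound of that interval is 0.957, so the difference was not clear of counting error. In the virus experiment Apobec1 stood at 15.6 FPKM in AAV-CDYL and 0.853 FPKM in AAV-GFP, a ratio of 18.3 (13.5 to 25.3). AAV-CDYL was the one library in which Apobec1 was above 2 FPKM, and there it stood above Abca1. Abca1 (ENSMUSG00000015243) spans 53030787 to 53159895 on chromosome 4, with 50 exons in its longest transcript, and Apobec1 (ENSMUSG00000040613) spans 122577792 to 122602444 on chromosome 6.

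**Figure D2:**
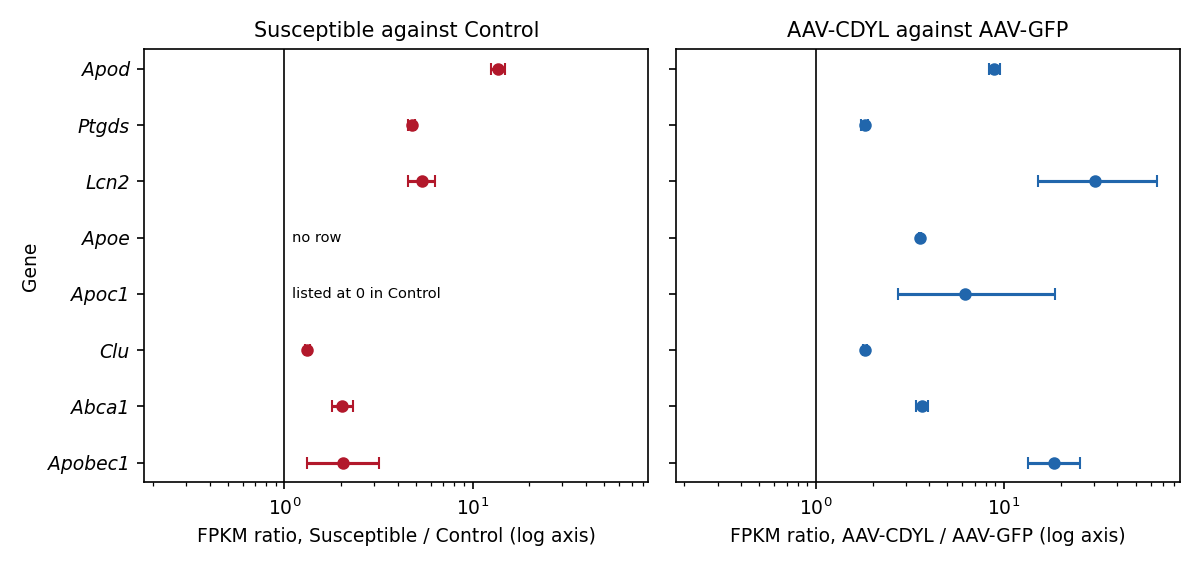
FPKM ratio of each gene (log axis), Susceptible over Control on the left and AAV-CDYL over AAV-GFP on the right; bars are 95% intervals for counting error only. Apod lies at 13.6 and 8.87; Ptgds lies at 4.75 on the left and 1.81 on the right, and Lcn2 and Apobec1 at 30.6 and 18.3 on the right.

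The size rule called a gene higher or lower from a 1.5-fold difference of FPKM + 1 upwards, and took in every gene that reached 1 FPKM in at least 1 of the 2 libraries. By this rule 5 of 7 listed genes of the set were higher in Susceptible and 0 lower, beside 18.9% of all 5334 genes higher and 10.8% lower. Clu and Apobec1 were not counted. In the virus experiment 8 of 8 were higher in AAV-CDYL and 0 lower, beside 31.3% of 8047 genes higher and 14.4% lower. The set was chosen with these values known, so nothing follows from these counts. Apoc1 and Apobec1 in the stress experiment, and Lcn2, Apoc1 and Apobec1 in the virus experiment, were under 1 FPKM in Control or AAV-GFP and passed only through the other library. With the floor set on Control, 4 of 5 genes of the set were higher and 0 lower, beside 13.5% and 12.4% of 4649 genes. With the floor set on AAV-GFP, 5 of 5 were higher and 0 lower, beside 21.2% and 17.4% of 6679.

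**Figure D3:**
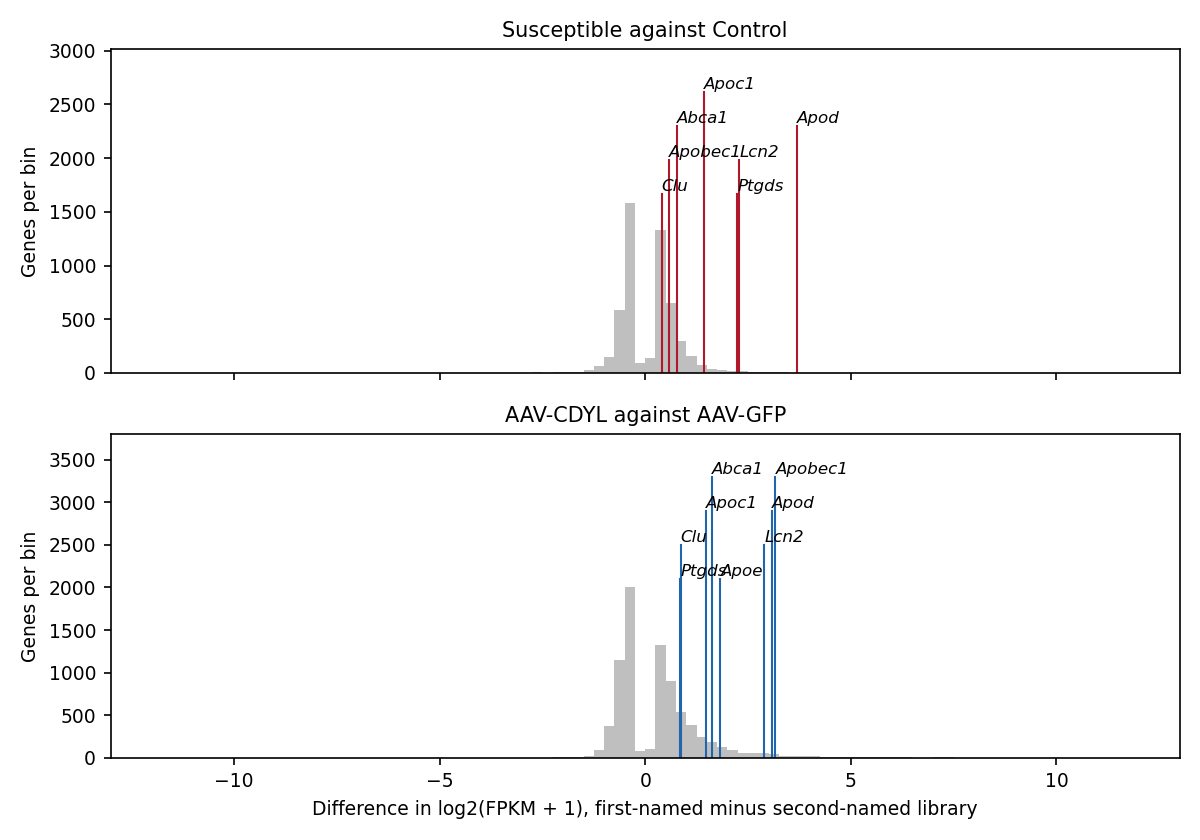
Number of genes per 0.25-wide bin of the difference in log2(FPKM + 1), Susceptible minus Control above and AAV-CDYL minus AAV-GFP below, with the genes of the set as labelled lines. The dip around 0 is the gap left by genes that the tables do not list; Apod stands at 3.69 and 3.09, and Clu at 0.40 and 0.86.

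Centring each table on the median of all its genes past the floor (0.24 for stress, 0.30 for virus) ended the call of Abca1 after stress (0.53) and those of Ptgds (0.55) and Clu (0.56) with AAV-CDYL. It turned the split over all genes from 1006 higher and 575 lower to 532 and 1918 for stress, and from 2516 and 1159 to 1630 and 3572 for the virus pair. In the authors' deposited table for stress, Apod, Ptgds and Lcn2 each have q = 0.0225, and Abca1 has p = 0.0027 with q = 0.397. At q under 0.05 that table has 3 of the set higher and 0 lower, beside 0.284% and 0.0487% of its genes, and at p under 0.05 it has 5 higher and 0 lower, beside 3.12% and 1.22%. In the authors' deposited table for the virus experiment only Apod of the set passes, with q = 0.00727, beside 0.955% of genes higher and 0 lower. At p under 0.05 it has 4 of the set higher and 0 lower, beside 5.16% and 0.318% of genes. The same table, as the authors' deposited table, gives Lcn2 a p of 0.189 beside its ratio of 30.6. These are the authors' values for 1 library against 1.

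Oligodendrocyte markers were higher in both experiments, and Apod exceeded all of them while Ptgds did not. For comparison with each marker count, 18.9% of all genes were higher and 10.8% lower after stress, and 31.3% and 14.4% with AAV-CDYL. After stress 10 of 13 markers past the floor were higher and 0 lower, with a summed level of 1602 FPKM in Susceptible and 623 FPKM in Control. Their ratios ran from 1.48 to 4.98 (median 2.40), below the 13.6 of Apod in 13 of 13 and below the 4.75 of Ptgds in 12 of 13. With AAV-CDYL 15 of 15 were higher, with a sum of 2607 FPKM against 671 FPKM in AAV-GFP, and ratios from 3.18 to 7.59 (median 3.97). The ratio of Apod, 8.87, lay above 15 of 15, and that of Ptgds, 1.81, below 15 of 15. This place of Apod was not particular to oligodendrocyte markers. After stress its ratio lay above every marker with a ratio in the other lists too, among them 11 of 11 endothelial and 5 of 5 leptomeningeal. With AAV-CDYL it lay above 10 of 10 endothelial, 7 of 7 leptomeningeal and 7 of 8 astrocyte markers. It lay above only 8 of 15 microglial and 0 of 2 lymphocyte markers there. Mbp, the main myelin basic protein, stood at 769 FPKM in Susceptible and 320 in Control, and at 1267 in AAV-CDYL and 333 in AAV-GFP. Ptgds was thus higher in Susceptible than in AAV-CDYL, whereas Mbp was higher in AAV-CDYL. What part of the Apod and Ptgds values comes with the oligodendrocyte markers was not tested.

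Leptomeningeal fibroblasts also make Apod and Ptgds, and all but 1 of their markers were below 10 FPKM in every library. That 1, Igfbp2, was listed only in the AAV table, at 26.3 FPKM in AAV-CDYL and 11.3 in AAV-GFP, and made up most of both sums there. After stress 2 of 5 past the floor were higher, with a sum of 13.5 FPKM in Susceptible and 6.34 in Control, where Col3a1 and Lum were listed at 0. With AAV-CDYL 6 of 7 were higher, with a sum of 47.7 FPKM against 19.2 in AAV-GFP and none listed at 0. Of all genes 18.9% were higher after stress and 31.3% with AAV-CDYL. Decorin (Dcn), a matrix proteoglycan of these cells, stood at 1.2997 FPKM in Susceptible and 0.281 in Control, and at 3.63 in AAV-CDYL and 1.03 in AAV-GFP. Ratios ran up to 4.63 after stress, just under that of Ptgds, and up to 4.13 with AAV-CDYL, where the lowest (1.89) exceeded that of Ptgds. Choroid plexus and ependymal markers, the other candidates for Ptgds, summed to 4.996 FPKM in Susceptible and 1.46 in Control, and to 10.7 in AAV-CDYL and 1.60 in AAV-GFP. Their most specific marker, Ttr, was listed at 0 in Control and in AAV-GFP. The part of these cells in the results was not tested.

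Neutrophil markers moved with Lcn2 after stress. Of 8 past the floor, 7 were higher and 0 lower, beside 18.9% and 10.8% of all genes. The summed level of the list was 329 FPKM in Susceptible and 82.4 FPKM in Control, where Camp and Mpo were listed at 0. S100a8, an alarmin abundant in these cells, stood at 150 FPKM in Susceptible and 38.0 in Control, and S100a9, its partner, at 133 FPKM in Susceptible and 35.5 in Control. In the virus experiment only 7 of the 11 markers are listed, against 10 for stress, so the sums do not cover the same genes. The 7 summed to only 3.43 FPKM in AAV-CDYL and 1.76 FPKM in AAV-GFP, and the unlisted ones carry no value. S100a8 stood at 1.74 FPKM in AAV-CDYL and 0.771 in AAV-GFP. S100a8 was thus, like Lcn2, far higher in Control than in AAV-GFP. Haemoglobin and other erythrocyte markers did not move with Lcn2: after stress 0 of 5 were higher and 2 lower, with summed levels 0.594 times those of Control. What part of the Lcn2 values comes from neutrophils was not tested.

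Astrocytes and microglia are known to express Apoe, and their markers are given beside it and beside Clu, Abca1, Apoc1 and Apobec1. For comparison with the counts that follow, 18.9% of all genes were higher and 10.8% lower after stress, and 31.3% and 14.4% with AAV-CDYL. Microglial markers were mixed after stress (3 of 11 higher, 2 lower, summed level 236 FPKM in Susceptible and 211 in Control). With AAV-CDYL 14 of 15 were higher, with a sum of 2088 FPKM against 274 in AAV-GFP. The lysosomal protease Ctss stood at 401 FPKM in AAV-CDYL and 30.0 in AAV-GFP, the highest ratio of the list (13.4), and the 18.3 of Apobec1 exceeded 15 of 15. Apoe (3.56) and Abca1 (3.66) each exceeded only 4 of 15, but 6 of 8 astrocyte markers. The place of Apobec1 was not particular to microglial markers. Its ratio also exceeded 15 of 15 oligodendrocyte, 10 of 10 endothelial and 7 of 8 astrocyte markers, but 0 of 2 lymphocyte markers. Of 8 astrocyte markers after stress 3 were higher and 1 lower (sum 706 FPKM in Susceptible, 436 in Control). Of 8 with AAV-CDYL 6 were higher and 1 lower (741 FPKM, against 236 in AAV-GFP). These sums do not cover the same markers. Aldoc, at 443 FPKM in Susceptible and 276 in Control, made up most of the stress sums and is unlisted for the virus pair. Most of the AAV-CDYL sum was Gfap. Gfap, the filament protein of reactive astrocytes, stood at 31.0 FPKM in Susceptible and 2.92 in Control (ratio 10.6), and at 386 FPKM in AAV-CDYL and 5.85 in AAV-GFP (66.1), the highest ratio of the list in both experiments. The ratio of Clu lay within the astrocyte list in both experiments, above 3 of 8 and 4 of 8 markers. Neuronal markers were lower by the rule for 1 of 4 after stress and 5 of 8 with AAV-CDYL, and 0 were higher in either. Endothelial markers were higher for 7 of 11 in Susceptible and 5 of 10 in AAV-CDYL, pericyte markers for 2 of 6 and 0 of 3, with 0 lower. Lymphocyte markers summed to 34.0 FPKM in AAV-CDYL and 0.646 in AAV-GFP (6 of 6 higher, all under 1 FPKM in AAV-GFP). For stress only 1 of these 8 markers is listed, under the floor, and the unlisted ones carry no value. None of these cell types was tested as a source of the differences.

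**Figure D4:**
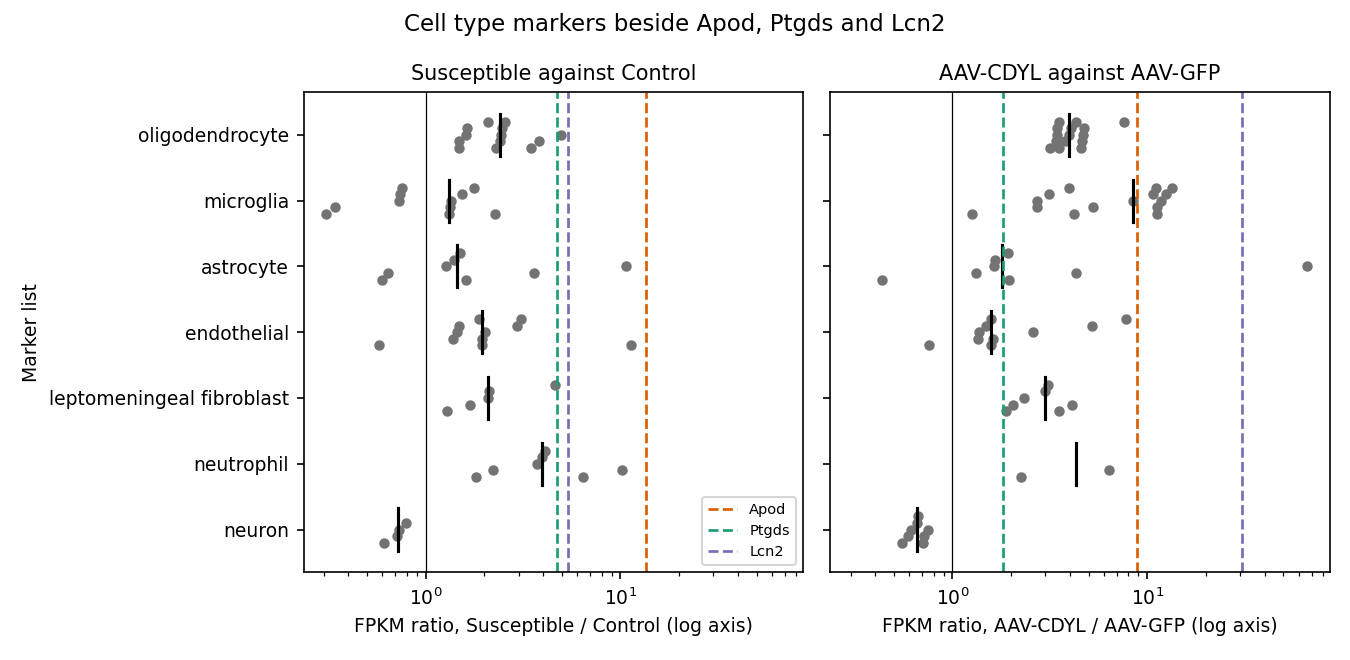
FPKM ratio (log axis) of each marker past the floor and above 0 in Control or AAV-GFP, by cell type list; short black lines are list medians and dashed lines mark Apod, Ptgds and Lcn2. Apod lies right of every marker shown in the stress panel, and right of all oligodendrocyte markers in the virus panel. Ptgds moves from the right edge of the oligodendrocyte list (4.75) to its left (1.81).

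Few other lipocalins were listed above the floor, and an unlisted gene may still be expressed. Of 23 lipocalin genes 8 are listed for stress and 7 for the virus experiment, and apart from Apod, Ptgds and Lcn2 only Rbp4, the carrier of retinol in plasma, passed the floor (15.2 FPKM in Susceptible, 23.2 in Control, not counted). Of the lipocalin receptors, Stra6, which takes up retinol from Rbp4, stood at 2.01 FPKM in Susceptible and 0.539 in Control. Slc22a17, described as a receptor of Lcn2, stood at 198 FPKM in AAV-CDYL and 250 in AAV-GFP, and was not counted; Lrp2, another, was under 1 FPKM. Lmbr1l was higher (6.10 FPKM in AAV-CDYL, 2.76 in AAV-GFP) and Mc4r, a melanocortin receptor reported to bind Lcn2, lower (1.54 FPKM in AAV-CDYL, 3.06 in AAV-GFP).

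Among 8 apolipoproteins outside the set that passed the floor in the AAV table, 4 were higher in AAV-CDYL and 1 lower. Over all genes 31.3% were higher and 14.4% lower. These 4 were under 1 FPKM in AAV-GFP and passed only through AAV-CDYL. With the floor set on AAV-GFP, 3 of 7 of the whole list were higher, all of them genes of the set, and 1 was lower. Apol9a stood at 1.70 FPKM in AAV-CDYL and 0.0340 in AAV-GFP, and its close copy Apol9b at 1.48 FPKM in AAV-CDYL and 0.0322 in AAV-GFP; reads of such copies cannot be assigned with certainty. Apoc2, the cofactor of lipoprotein lipase, stood at 1.48 FPKM in AAV-CDYL and 0.138 in AAV-GFP. Its symbol has 2 gene IDs in the table, of which the more abundant was used. Apoh was the lower one, at 0.167 FPKM in AAV-CDYL and 1.97 in AAV-GFP. Apoa2, a component of plasma high-density lipoprotein, was the other one higher, at 2.59 FPKM in AAV-CDYL and 0.888 in AAV-GFP. After stress Apoa2 alone passed the floor outside the set, at 1.46 FPKM in Susceptible and 0.350 in Control. All these genes were far below Apoe and Clu.

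Genes of sterol efflux and of the liver X receptors (LXR), nuclear receptors that sense sterols and induce Abca1 and Apoe, were counted in both experiments. Leaving out Abca1, 8 of 12 past the floor were higher and 1 lower with AAV-CDYL, beside 31.3% and 14.4% of all genes. After stress 3 of 10 were higher and 0 lower, beside 18.9% and 10.8%. Plin2, a lipid droplet coat protein, stood at 13.4 FPKM in AAV-CDYL and 1.47 in AAV-GFP, but at 3.41 in Susceptible and 2.48 in Control. Ch25h, which makes 25-hydroxycholesterol, stood at 6.33 FPKM in Susceptible and 0.661 in Control (ratio 9.58), and at 1.75 in AAV-CDYL and 0.190 in AAV-GFP (9.21). Both ratios rest on levels under 1 FPKM in Control and AAV-GFP, and their counting error was not computed. Npc2, which moves cholesterol out of lysosomes, stood at 40.3 FPKM in AAV-CDYL and 10.2 in AAV-GFP. Srebf1, a lipogenic target of LXR, stood at 14.4 FPKM in Susceptible and 7.89 in Control, and at 22.7 in AAV-CDYL and 10.6 in AAV-GFP. With Abca1 included, the list's median difference was 0.34 after stress and 0.86 with AAV-CDYL, beside 0.24 and 0.30 over all genes past the floor.

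Of 6 lipoprotein receptors and lipases past the floor after stress, 0 were higher and 1 lower (median -0.38), beside 18.9% and 10.8% of all genes. Of 12 with AAV-CDYL 4 were higher and 2 lower (median -0.34), beside the 31.3% and 14.4% of all genes. All 6 reached 1 FPKM in Control, and 11 of the 12 did so in AAV-GFP. Over all genes that did so, the median was -0.29 for stress and -0.32 for the virus pair, so both list medians lay near these. No difference from the apolipoproteins was tested. Trem2, a microglial receptor that binds Apoe and Clu, was the lower one after stress, at 6.28 FPKM in Susceptible and 18.4 in Control, and was higher with AAV-CDYL, at 70.7 FPKM against 8.33 in AAV-GFP. Sorl1, a sorting receptor of neurons that also binds Apoe, stood at 37.6 FPKM in AAV-CDYL and 72.5 in AAV-GFP. The scavenger receptor Cd36 stood at 1.38 FPKM in AAV-CDYL and 0.0714 in AAV-GFP.

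Of 21 prostaglandin genes, Ptgds included, 13 are listed for stress and 17 for the virus experiment. In each library the other listed ones stood below Ptgds, and unlisted ones carry no value. Ptges3, a prostaglandin E synthase that is also a cochaperone, was the next in the stress table (28.0 FPKM in Susceptible, 40.2 in Control, not counted), and Ptgs1, a cyclooxygenase, in the AAV table (11.3 FPKM in AAV-CDYL, 7.24 in AAV-GFP, not counted). Of 5 others past the floor after stress, 1 was higher, beside 18.9% of all genes. It was Ptges, a prostaglandin E synthase (1.98 FPKM in Susceptible, 0.920 in Control), which passed only through Susceptible. Of 10 others with AAV-CDYL, 5 were higher and 0 lower, beside 31.3% and 14.4% of all genes. With Ptgds included and the floor set on AAV-GFP, 3 of 8 were higher. Hpgds, the haematopoietic prostaglandin D synthase, which has the same product as Ptgds but belongs to another protein family, stood at 6.55 FPKM in AAV-CDYL and 1.91 in AAV-GFP. Tbxas1, thromboxane synthase, stood at 4.08 FPKM in AAV-CDYL and 0.670 in AAV-GFP. Pla2g4a, the phospholipase that frees arachidonic acid, stood at 2.44 FPKM in AAV-CDYL and 0.443 in AAV-GFP.

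Around Apobec1, Apobec3 was counted as higher in both experiments. Apobec3, an antiviral DNA deaminase, stood at 2.68 FPKM in Susceptible and 0.490 in Control, and at 13.3 in AAV-CDYL and 0.948 in AAV-GFP, close to Apobec1 in the last pair. Adarb1, an adenosine deaminase that edits glutamate receptor transcripts, was not counted in either experiment: 25.7 FPKM in Susceptible and 33.1 in Control, and 20.3 in AAV-CDYL and 30.8 in AAV-GFP. Of the list without Apobec1, 2 of 4 past the floor were higher after stress and 1 of 4 with AAV-CDYL, with 0 lower. Over all genes 18.9% and 31.3% were higher. Apobec3 passed only through Susceptible and AAV-CDYL. With the floor set on Control 1 of 3 was higher, and with it set on AAV-GFP 0 of 2.

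Lcn2 is also an acute-phase gene. Leaving out Lcn2, 10 of 13 past the floor were higher in Susceptible and 12 of 13 in AAV-CDYL, with 0 lower in either. Over all genes 18.9% were higher in Susceptible and 31.3% in AAV-CDYL. Several of these genes were under 1 FPKM in Control or AAV-GFP and passed only through the other library. With Lcn2 included and the floor set on Control, 6 of 7 were higher, beside 13.5% of all genes. With the floor set on AAV-GFP, which Lcn2 does not reach, 7 of 7 were higher, beside 21.2%. Serum amyloid A3 (Saa3) stood at 26.1 FPKM in Susceptible and 0.251 in Control, and at 3.19 in AAV-CDYL, with 0 listed for AAV-GFP. Serpina3n, a protease inhibitor of reactive astrocytes, stood at 28.3 FPKM in Susceptible and 5.27 in Control, a ratio of 5.36 beside the 5.37 of Lcn2. With AAV-CDYL it stood at 84.7 FPKM against 6.94 in AAV-GFP (12.2). Cebpd, a transcription factor of the acute-phase response, stood at 7.33 FPKM in Susceptible and 2.28 in Control, and at 11.03 in AAV-CDYL and 1.94 in AAV-GFP. Lcn2 and Saa3 were thus higher in Susceptible than in AAV-CDYL, whereas Serpina3n and Cebpd were higher in AAV-CDYL.

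**Figure D5:**
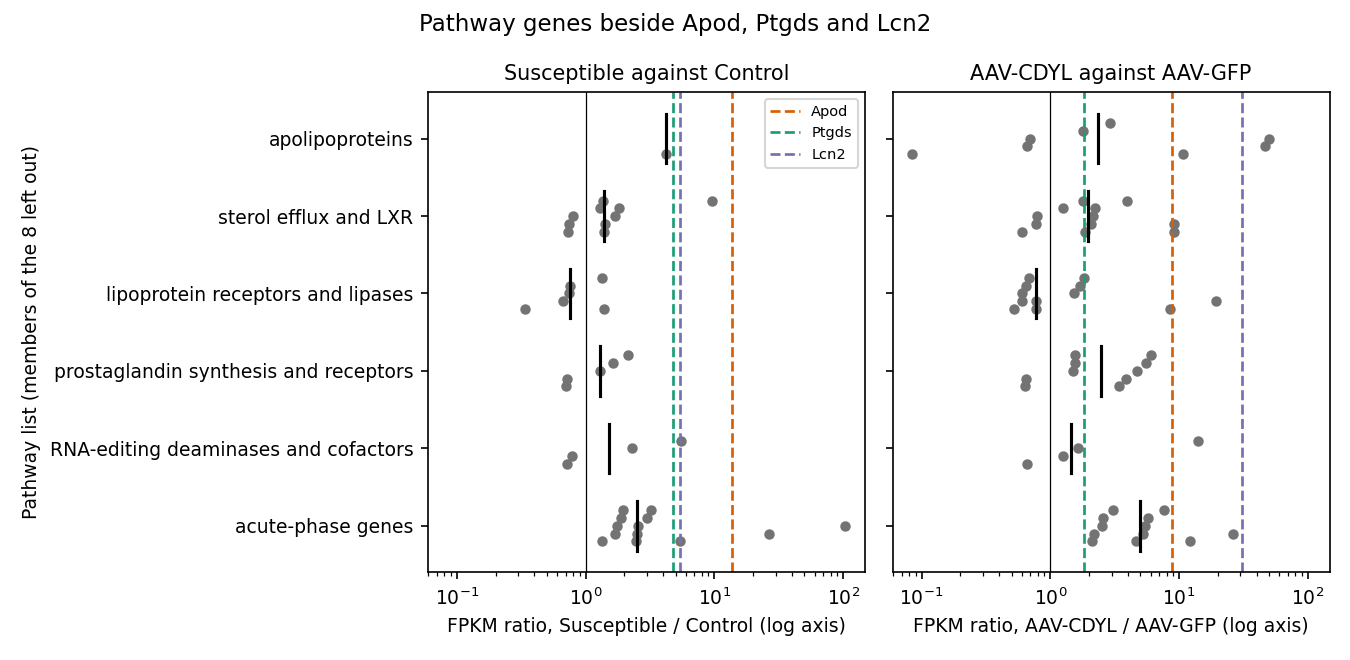
FPKM ratio (log axis) of the pathway genes past the floor and above 0 in Control or AAV-GFP, without the 8 genes of the set; short black lines are list medians and dashed lines mark Apod, Ptgds and Lcn2. Acute-phase genes lie right of 1 in both panels, and lipoprotein receptors lie on both sides of 1. The highest acute-phase ratio on the left, 104 for Saa3, rests on only 0.251 FPKM in Control, and its counting error was not computed.

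The genes nearest to each lipocalin were found by the distance between pairs of log2(FPKM + 1) differences, over the 2 comparisons and 2362 genes at a mean of at least 2 FPKM in both tables. Apod had no close neighbour: the nearest were the small RNA gene Rn7s6 (0.89) and Yam1,AY036118 (0.91), at or near 0 in Control and AAV-GFP, then Vwf, the von Willebrand factor of endothelium (1.19), CAAA01147332.1 (1.32), and Lcn2 (1.41). Vwf stood at 45.3 FPKM in Susceptible and 3.98 in Control, and at 12.9 in AAV-CDYL and 2.48 in AAV-GFP. Nearest to Ptgds were Rpl21-ps8 (0.22), Ddc, the decarboxylase of dopamine and serotonin synthesis (0.30), Gm22009 (0.31), Mthfs (0.34) and Gm37376 (0.34). Nearest to Lcn2 were Serpina3n (0.54), Gm24447 (0.55), CAAA01147332.1 (0.55), Hapln2 (0.60) and Hist1h4h (0.63). Each likeness rests on 2 differences, and nearness is a description.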

How the data were processed

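RNA was extracted with Trizol from frozen prelimbic cortex and libraries were made with a NEBNext Ultra kit from 1 µg of total RNA, per the labels' protocols. The authors deposited 1 table per experiment with FPKM values for both libraries and with p-values and q-values, made with Cuffdiff on mm10, per the submitters' processing notes, with aligner and annotation not given in the sources used here. The Susceptible column was matched to its title although its header lacks a letter, and 0 per-sample columns were left unmapped.

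From these FPKM values the difference in log2(FPKM + 1) was taken, first-named library minus second, with a floor of 1 FPKM in either library and a 1.5-fold rule; this scale understates differences of low genes. A symbol with several IDs was represented by the most abundant. Depth came from FPKM steps of genes with 1 transcript of 3 to 20 kb (GENCODE M21, same build): of values up to 4.5 steps, 92.4% or more fell no further than 0.15 from a whole one. Fragment numbers are FPKM times the longest transcript's length times this depth, and ignore fragment length. None of the 8 genes shares exonic bases with another gene in GENCODE M21. Promoter sequences are from RefSeq and matched 6 of the 8 genes; the motifs were chosen by hand. The genes and the 8 pathway and 11 marker lists were chosen with earlier results of these data known. Besides the 8 genes, those named were up to 4 per pathway list with the largest difference in either experiment, up to 3 markers per list with the highest level, and the 5 nearest genes; Rn18s-rs5, Ptges3, Ptgs1, Apoa2, Slc22a17, Lrp2 and Ttr were added after their values were seen. Alternatives were a 2-fold rule, median centring, upper-quartile scaling, other floors (none, or 5 FPKM), other pseudocounts (0.1, 0.5), and the authors' p or q under 0.05. Computation used Python 3.11.15 with scipy 1.17.1, numpy 2.4.6, pandas 2.3.3 and, for plots, matplotlib 3.10.9.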

Additional observations from a re-analysis of the deposited data

How the results depend on the processing

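Another pseudocount cannot change the sign of a difference. The medians subtracted in centring (0.24 and 0.30) were smaller than the smallest difference of the set, 0.40 for Clu after stress. The unchanged signs under these 2 settings therefore say nothing about the direction. Upper-quartile scaling changed no sign either. Over these settings the difference of Apod ranged from 3.45 to 3.76 after stress and from 2.79 to 3.14 with AAV-CDYL. With pseudocounts of 0.1 and 0.5 Apobec1 was counted after stress too (up to 0.95), giving 6 genes. The genes of the set counted as higher were 3 after stress both by the authors' q (of 7) and with a floor of 5 FPKM, which only 4 of the set reach. With AAV-CDYL they were 1 by the authors' q, 4 by their p, and 5 with a floor of 1 FPKM in AAV-GFP, a setting chosen after seeing the data. Over all genes, centring gave 532 higher and 1918 lower after stress, and 1630 and 3572 with AAV-CDYL. The 2-fold rule gave 366 and 136, and 1424 and 145. The authors' q gave 35 and 6, and 147 and 0; their p gave 384 and 150, and 794 and 49. A floor of 5 FPKM left 483 and 1416 higher, and a floor of 1 FPKM in Control or AAV-GFP 627 and 1417. These settings count fewer genes or ask for more, or shift all genes, by construction. Depth limits the ratios of Apoc1, of Apobec1 after stress and of Lcn2 with AAV-CDYL, where Control or AAV-GFP has few fragments. No paired analysis was possible because each group has 1 library. Leaving out a library was not possible for the same reason, so nothing here measures the spread between mice.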
